A study of Homo sapiens with 30 samples.

Results

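The glucose transport and glycolysis genes described here are 31 named genes, taken as the lines of the deposited table that carry those gene names, out of 58735 genes in all. They span glucose carriers (SLC2A1, SLC2A3, SLC2A10, SLC2A12), the first steps on glucose and stored glucose (HK1, HK2, GPI, PGM1), phosphofructokinase and its regulators (PFKL, PFKM, PFKP, PFKFB2, PFKFB3, PFKFB4), the lower pathway (ALDOA, ALDOC, TPI1, GAPDH, PGK1, PGAM1, ENO1, ENO2, PKM), lactate handling (LDHA, LDHB, SLC16A1, SLC16A3) and the pyruvate dehydrogenase kinases (PDK1, PDK2, PDK3, PDK4). They were measured in LNCaP, an established human prostate cancer line that responds to androgen. Every group carried an shRNA against mTOR (shmTOR) and an inducible rescue construct, so the EV controls carried the knockdown too. The construct was either empty (EV, the vector control) or coded for mTOR: the wild type (WT), a form tagged with a nuclear export signal (NES), a form that carried a nuclear localization signal (NLS), or that nuclear form with the kinase-dead change D2357E (NLSKD). These 5 are called lines below. After 48 h of androgen deprivation in 2% charcoal-stripped serum (CSS), the 5 lines received the synthetic androgen R1881 at 10 nM, or 0.1% ethanol as vehicle, during the next 24 h. Each of the 10 groups had 3 libraries made from total RNA, 30 in all, read from both ends at 150 bases. All lines derive from LNCaP alone, whether each rescue line is a clone or a pool is not given in the sources used here, and cells without shmTOR were not analysed here. Nothing in the labels says that the 3 libraries of a group came from separate cultures, so p-values measure only how far these samples differ, and that spread may be technical.

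Glycolysis turns glucose into pyruvate in the cytosol. SLC2A carriers bring glucose into the cell, hexokinases trap it as a phosphate ester, and phosphofructokinase commits it to breakdown under the control of a signalling sugar made by PFKFB enzymes. The lower enzymes yield ATP and pyruvate, which lactate dehydrogenase turns into lactate for export by SLC16A carriers, or which enters mitochondria, where PDK enzymes switch pyruvate dehydrogenase off. The androgen receptor and mTOR signalling, the latter partly through the factors HIF1A and MYC, are both known to act on genes of this pathway in prostate cancer cells, and HIF and MYC bind short motifs near many of these genes.

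Promoter sequences were taken from RefSeq (GRCh38.p14) for 28 of the 31 members, matched by symbol. SLC2A3, PFKFB2 and SLC16A1 are named only. The 4 sequences below hold the 250 bases before the RefSeq start of SLC2A12 and HK2, which rose under R1881 in every line, and of LDHA and PGK1, which were called lower than EV in WT and NLS. The RefSeq start of each lies inside the span given for its gene further on, which is that of GENCODE release 29 and runs over all its transcripts, and in PGK1 it lies far from the GENCODE start. They read 5′ to 3′ on the gene's own strand. Capitals mark ACGTG or GCGTG, the core of the site read by HIF factors, and CACGTG, the E-box read by MYC and related factors, on either strand (ACGTG lies within CACGTG). The windows are chr6:134052625-134052874 (minus strand) for SLC2A12, chr2:74833877-74834126 (plus) for HK2, chr11:18394313-18394562 (plus) for LDHA and chrX:78103998-78104247 (plus) for PGK1.
SLC2A12: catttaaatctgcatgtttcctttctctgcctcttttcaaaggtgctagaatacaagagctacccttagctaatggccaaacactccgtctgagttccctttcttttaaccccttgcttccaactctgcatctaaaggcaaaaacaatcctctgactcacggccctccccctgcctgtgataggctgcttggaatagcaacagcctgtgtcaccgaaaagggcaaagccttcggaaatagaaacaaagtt
HK2: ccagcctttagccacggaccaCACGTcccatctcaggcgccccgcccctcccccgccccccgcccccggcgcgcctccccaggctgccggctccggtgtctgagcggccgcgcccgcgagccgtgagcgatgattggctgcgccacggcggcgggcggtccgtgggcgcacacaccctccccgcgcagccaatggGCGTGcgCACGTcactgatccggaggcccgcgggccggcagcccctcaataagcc
LDHA: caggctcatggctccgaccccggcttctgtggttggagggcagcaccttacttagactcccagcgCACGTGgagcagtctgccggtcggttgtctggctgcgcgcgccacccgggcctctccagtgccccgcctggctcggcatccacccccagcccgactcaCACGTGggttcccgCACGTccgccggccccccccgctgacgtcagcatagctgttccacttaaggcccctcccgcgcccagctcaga
PGK1: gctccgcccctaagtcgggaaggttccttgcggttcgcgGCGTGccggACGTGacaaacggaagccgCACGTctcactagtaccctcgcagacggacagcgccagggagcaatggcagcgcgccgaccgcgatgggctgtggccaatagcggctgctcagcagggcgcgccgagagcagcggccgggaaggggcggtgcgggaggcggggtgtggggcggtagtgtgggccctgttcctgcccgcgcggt
The SLC2A12 window held none of these motifs, the HK2 and PGK1 windows held the HIF cores only, and the LDHA window held CACGTG and a further ACGTG. Over windows of 300 bases (250 before and 50 after the start), ACGTG or GCGTG on either strand lay in 18 of the 28 members, against 48.4% of the 27303 genes in the table. CACGTG lay in 3 members (ALDOC, GAPDH and LDHA), against 7.41% of genes. The full androgen response element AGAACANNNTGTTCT lay in none of the 28 and in 0.004% of genes, and its AGAACA part lay in 3 members (ALDOA, GPI and PDK4), against 14.8% of genes. These matches describe letters in a short window and show neither binding nor its absence.

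Levels are given as CPM, the read counts scaled to a common library size with edgeR's TMM factors. Library totals ran from 21.4 to 61.8 M counts (median 24.5 M). The share of counts from mitochondrial genes ran from 3.90% to 11.7%, and was over 9% in 5 libraries, which were NES R1881 2, NLS R1881 2, EV vehicle 3, NLSKD vehicle 2 and NLS vehicle 2. MTOR, the targeted gene, averaged 25.7 CPM in EV vehicle and 66.1 CPM in EV R1881, and from 930 to 5252 CPM in the rescue groups. By the edgeR test described below, its rise under R1881 in EV was called (log2 change 1.36 ± 0.33, SE, adjusted p 0.00786), and no rescue line had a called change. All 8 luminal prostate markers were detected in every group, with a summed level of 2663 to 4773 CPM in vehicle libraries and 6881 to 12523 CPM in R1881 libraries. The 4 basal markers summed to at most 2.98 CPM, with KRT5 and TP63 at or near 0, and the 7 neuroendocrine markers, ENO2 among them, to 9.73 to 41.6 CPM. The 5 mesenchymal markers summed to 118 to 382 CPM, mostly FN1. In bulk RNA, fewer cells of a type and less RNA per cell cannot be told apart.

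The members ranged over several orders of magnitude in level. On the FPKM scale, which divides by gene length, the mean over the 10 groups was highest for GAPDH at 729.9, followed by ENO1 (308), TPI1 (285), PGAM1 (189), LDHA (175), PGK1 (129) and PKM (119), all enzymes of the lower pathway or its lactate branch. GPI, which interconverts hexose phosphates, averaged 67.0 FPKM, ALDOC 46.1 and the lactate and pyruvate carrier SLC16A1 45.9. Between 10 and 30 FPKM lay HK1 (28.0), PFKP (23.1), PFKL (21.1), PFKM (19.1), the basal glucose carrier SLC2A1 (15.3), PGM1 (13.8) and HK2 (12.6). LDHB (9.54), SLC2A12 (6.19), PDK1 (4.96), ENO2 (4.47), PDK3 (4.45), PFKFB2 (4.01), PDK2 (3.81), PFKFB3 (3.46), ALDOA (3.33) and PFKFB4 (3.33) were lower. SLC2A3 averaged 1.04 FPKM, SLC16A3 0.0737 and SLC2A10 0.0309. PDK4, which restrains pyruvate use in fasting, never exceeded 2 counts in a library and was the only member that did not pass the filter on low counts, so 30 members were tested.

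Within enzyme families, LDHA made up 91.7 to 95.9% of the FPKM of the LDHA and LDHB pair (the share in each library, averaged over the 3 libraries of a group), ENO1 97.8 to 99.2% of the enolases and ALDOC 90.2 to 94.8% of the aldolases. The aldolase split is uncertain, because 42.3% of the exon bases of ALDOA overlap another annotated gene on the same strand (AC093512.2), and reads there may not have been counted for ALDOA. The same holds for 33.4% of the exon bases of LDHB. The strand setting of the counting is not given in the sources used here, and 38.9% of SLC2A12, 38.6% of PDK2 and 14.2% of GAPDH exon bases face a gene on the other strand. The chief partner of SLC2A12, TBPL1, had no called androgen change in any line. SLC2A14, the near-identical copy of SLC2A3, was at 0 in all vehicle groups and at most 0.767 CPM under R1881.

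The 31 members took 0.746 to 1.63% of all counts of a library. As group means the share was 1.26 ± 0.347% (SD, n = 3) for EV, 0.833 ± 0.100% for WT, 0.989 ± 0.109% for NES, and 0.970 ± 0.0992% and 0.931 ± 0.069% for NLS and NLSKD under vehicle. Under R1881 it was 1.28 ± 0.165% for EV, 0.881 ± 0.0623% for WT, 1.06 ± 0.083% for NES, and 0.988 ± 0.167% and 0.968 ± 0.0545% for NLS and NLSKD. The EV means were the highest under both treatments and the WT means the lowest. GAPDH, a glyceraldehyde phosphate dehydrogenase often used as a reference gene, gave 17.9 to 25.9% of the members' counts.

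**Figure D1:**
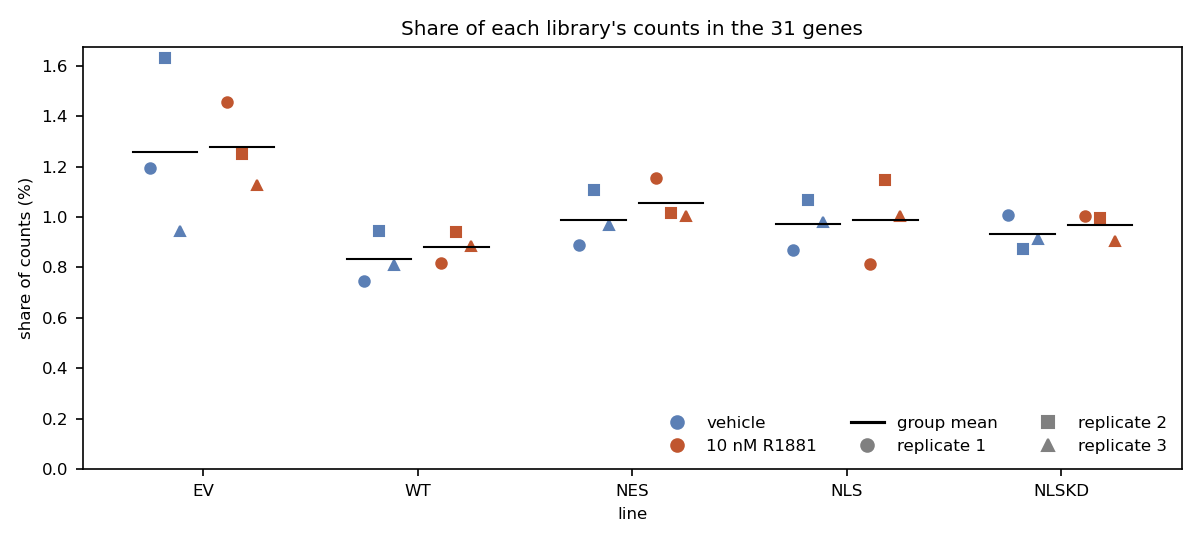
Share of all counts of a library that fell on the 31 members (percent, vertical axis), by line and treatment, with a point for each of the 3 libraries and a bar at the group mean. EV libraries ranged up to 1.63%, and the lowest library, in the WT vehicle group, stood at 0.746%.

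Within a group, many members were high in the same library. EV vehicle 2 was the highest of its 3 libraries for 20 of the 30 tested members, against 38.8% of all tested genes, and EV vehicle 3, a library with over 9% mitochondrial counts, was the highest for 0 of them, against 34.8%. EV R1881 1 was the highest for 24 members (36.6% of genes), WT vehicle 2 for 21 (32.5%), WT R1881 2 for 19 (31.8%) and NES R1881 1 for 20 (39.5%). Values without these libraries are given beside the results they change, and their part in the other results was not tested.

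The androgen response asks what R1881 did to the members in each line. In all 5 lines SLC2A3, SLC2A12 and HK2 rose, and HK1 and SLC2A1 rose in EV, WT and NES. PFKFB2 rose and PFKM fell in EV, and SLC2A10 rose from near 0 in EV and NES. The members called here all acted on glucose entry, its first phosphorylation or the phosphofructokinase step. No enzyme below phosphofructokinase, lactate gene or PDK was called, which does not show these genes unchanged. LDHA, ENO1, PGK1 and PDK1 had positive estimates in every line, and a further fit given below called ALDOA in NES. By edgeR's quasi-likelihood test at a Benjamini-Hochberg adjusted p under 0.05, the called members were 8 of 30 for EV (9.11% of all 18296 genes tested were called), 5 for WT (6.48%), 6 for NES (8.25%), 3 for NLSKD (4.08%) and 3 for NLS (4.44%). The higher ones were 7 for EV (4.55% of genes were higher), 5 for WT (3.47%), 6 for NES (4.21%), 3 for NLSKD (2.48%) and 3 for NLS (2.78%), and PFKM in EV was the lower one (4.55% of genes). The median log2 fold change of the 30 members was 0.17 for EV, 0.20 for WT, 0.26 for NES, and 0.17 and 0.21 for NLS and NLSKD, against -0.04, 0.01, 0.00, 0.02 and 0.01 over all genes. Without SLC2A3 and SLC2A10, whose fitted values rest on groups at or near 0, the medians were 0.15, 0.17, 0.24 and 0.15 for EV, WT, NES and NLS. For NLSKD, where SLC2A10 was kept, the median without SLC2A3 was 0.19. The member libraries of the 2 treatments did not overlap in 8 members for EV (22.3% of all genes), 8 for WT (23.8%), 11 for NES (24.6%), 8 for NLSKD (15.7%) and 9 for NLS (13.7%).

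**Figure D2:**
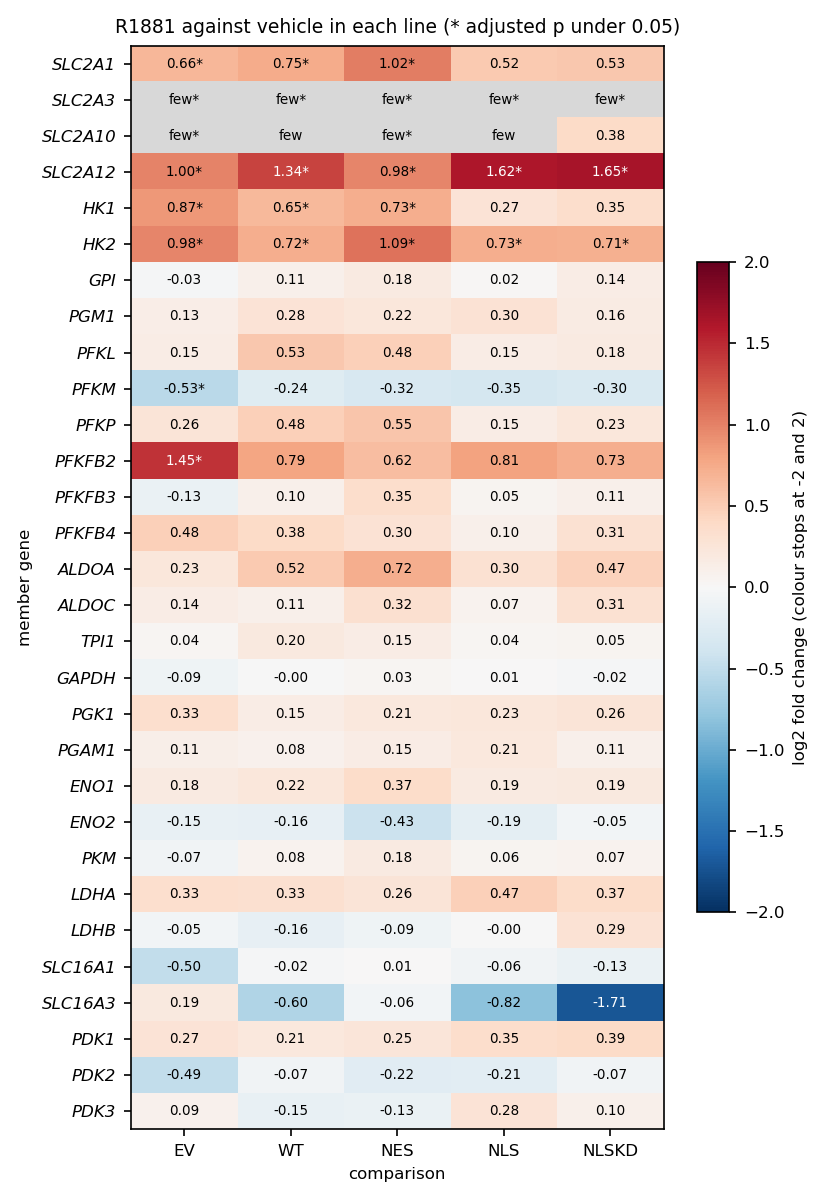
Log2 fold change, R1881 over vehicle, of each tested member (vertical axis, ordered by role) in each of the 5 lines (horizontal axis), with the colour scale stopping at 2 in either direction. Stars mark an adjusted p under 0.05, grey cells a group with at most 3 counts, and the starred cells sit among the carriers, the hexokinases, PFKM and PFKFB2.

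SLC2A3 (ENSG00000059804, chr12:7919230-7936275, minus strand, hg38) encodes the high-affinity glucose carrier GLUT3. It had no count in 13 of the 15 vehicle libraries, and stood at 0.078 CPM in WT vehicle 2 and 0.0378 CPM in NLSKD vehicle 3. Under R1881 the 3 libraries stood at 24.1, 10.7 and 17.2 CPM for EV, 14.2, 8.28 and 10.4 for WT, 26.5, 14.1 and 19.0 for NES, 13.1, 5.31 and 8.24 for NLS, and 11.6, 3.98 and 8.05 for NLSKD. Every R1881 library was above every vehicle library, and replicate 1 was the highest and replicate 2 the lowest under R1881 in each line. Where the vehicle group had no count, the lowest R1881 library was set against a floor of 3 counts over the vehicle group, and was at least 269-fold higher in EV (adjusted p 2.02e-08), at least 348-fold higher in NES (1.79e-08) and at least 126-fold higher in NLS (1.94e-07). In WT, with 2 counts in the vehicle group, the ratio was 431, with a counting interval of 119 to 3562 (adjusted p 1.18e-07), and in NLSKD, with 1 count, it was 594 (106 to 23521, adjusted p 3.66e-07). These intervals cover counting error only. As a share of the 4 carriers' FPKM in each library, averaged over the 3 libraries of a group, SLC2A3 went from at most 0.0294% under vehicle to 6.81% for EV, 6.45% for WT, 9.71% for NES, and 5.68% and 4.98% for NLS and NLSKD under R1881.

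SLC2A12 (ENSG00000146411, chr6:133988697-134052636, minus strand) encodes GLUT12, a carrier described as insulin-responsive. Under vehicle its libraries stood at 36.1, 22.8 and 25.8 CPM for EV, 14.7, 16.4 and 15.0 for WT, 24.6, 13.2 and 13.8 for NES, 11.4, 8.18 and 11.8 for NLS, and 13.2, 9.98 and 10.7 for NLSKD. Under R1881 they stood at 71.6, 37.4 and 60.0 CPM for EV, 42.2, 39.1 and 35.7 for WT, 38.6, 26.0 and 37.2 for NES, 46.4, 17.0 and 33.1 for NLS, and 39.4, 26.1 and 40.4 for NLSKD. Within each line the treatments did not overlap, and EV was the highest line on average under both. The log2 rises were 1.0 ± 0.30 (SE) for EV (adjusted p 0.0316), 1.34 ± 0.30 for WT (0.00417), 0.98 ± 0.30 for NES (0.0384), 1.65 ± 0.30 for NLSKD (0.000842) and 1.62 ± 0.30 for NLS (0.000992). The call in EV was lost without EV vehicle 2, EV vehicle 3, EV R1881 1 or EV R1881 3 (adjusted p 0.0925 to 0.175), and that in NES without NES vehicle 2, NES vehicle 3, NES R1881 1 or NES R1881 3 (0.143 to 0.169). Over 13 alternatives, single left-out libraries included, the call was lost in 6 for EV, 6 for NES and 1 for NLS (0.130). In WT and NLSKD it was lost in 0.

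SLC2A1 (ENSG00000117394, chr1:42925375-42959176, minus strand) encodes GLUT1, the carrier for basal uptake and the most abundant of the 4 here. The vehicle libraries stood at 69.3, 83.6 and 70.7 CPM for EV, 46.8, 50.4 and 47.4 for WT, 42.6, 54.3 and 54.4 for NES, 60.5, 40.1 and 61.6 for NLS, and 63.1, 36.4 and 52.3 for NLSKD. The R1881 libraries stood at 133, 91.7 and 129.7 CPM for EV, 72.1, 85.3 and 85.2 for WT, 113, 93.6 and 101 for NES, 72.3, 61.2 and 99.5 for NLS, and 83.4, 64.0 and 72.3 for NLSKD. The treatments did not overlap in EV, WT, NES and NLSKD, and NLS R1881 2 lay below a vehicle library of its line. The log2 rises were 0.66 ± 0.21 in EV (adjusted p 0.0403), 0.75 ± 0.21 in WT (0.0246) and 1.02 ± 0.21 in NES (0.00137). In NLS and NLSKD the estimates were 0.52 and 0.53 and were not called. The EV call was lost without EV vehicle 1, EV vehicle 3, EV R1881 1 or EV R1881 3 (0.134 to 0.166), and the WT call without any WT library other than WT R1881 1 (0.0646 to 0.105). SLC2A1 gave 71.4 to 82.9% of the 4 carriers' FPKM in the vehicle groups and 61.9 to 66.7% in the R1881 groups.

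SLC2A10 (ENSG00000197496, chr20:46709487-46736347, plus strand), the carrier GLUT10 of internal membranes, stayed below 1 CPM in every library. It was at 0 in all EV and NLS vehicle libraries, and at 0.0369, 0 and 0 CPM in WT, 0, 0.0883 and 0 in NES, and 0, 0.0929 and 0.0756 in NLSKD vehicle. Under R1881 it reached 0.767, 0.175 and 0.256 CPM for EV, 0, 0.0862 and 0.178 for WT, 0.774, 0.83 and 0.608 for NES, 0.315, 0 and 0.199 for NLS, and 0.207, 0 and 0 for NLSKD. The treatments did not overlap in EV and NES. Against the same floor, the lowest R1881 library was at least 4.40-fold higher in EV (adjusted p 0.0247), and in NES the ratio was 27.9 with a counting interval of 7.46 to 234 (adjusted p 0.0348). Both calls rest on few counts, and each was lost without single libraries, EV vehicle 1, 2 or 3 or EV R1881 1 (0.0727 to 0.111) and any NES library other than NES vehicle 2 (0.0763 to 0.171).

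**Figure D3:**
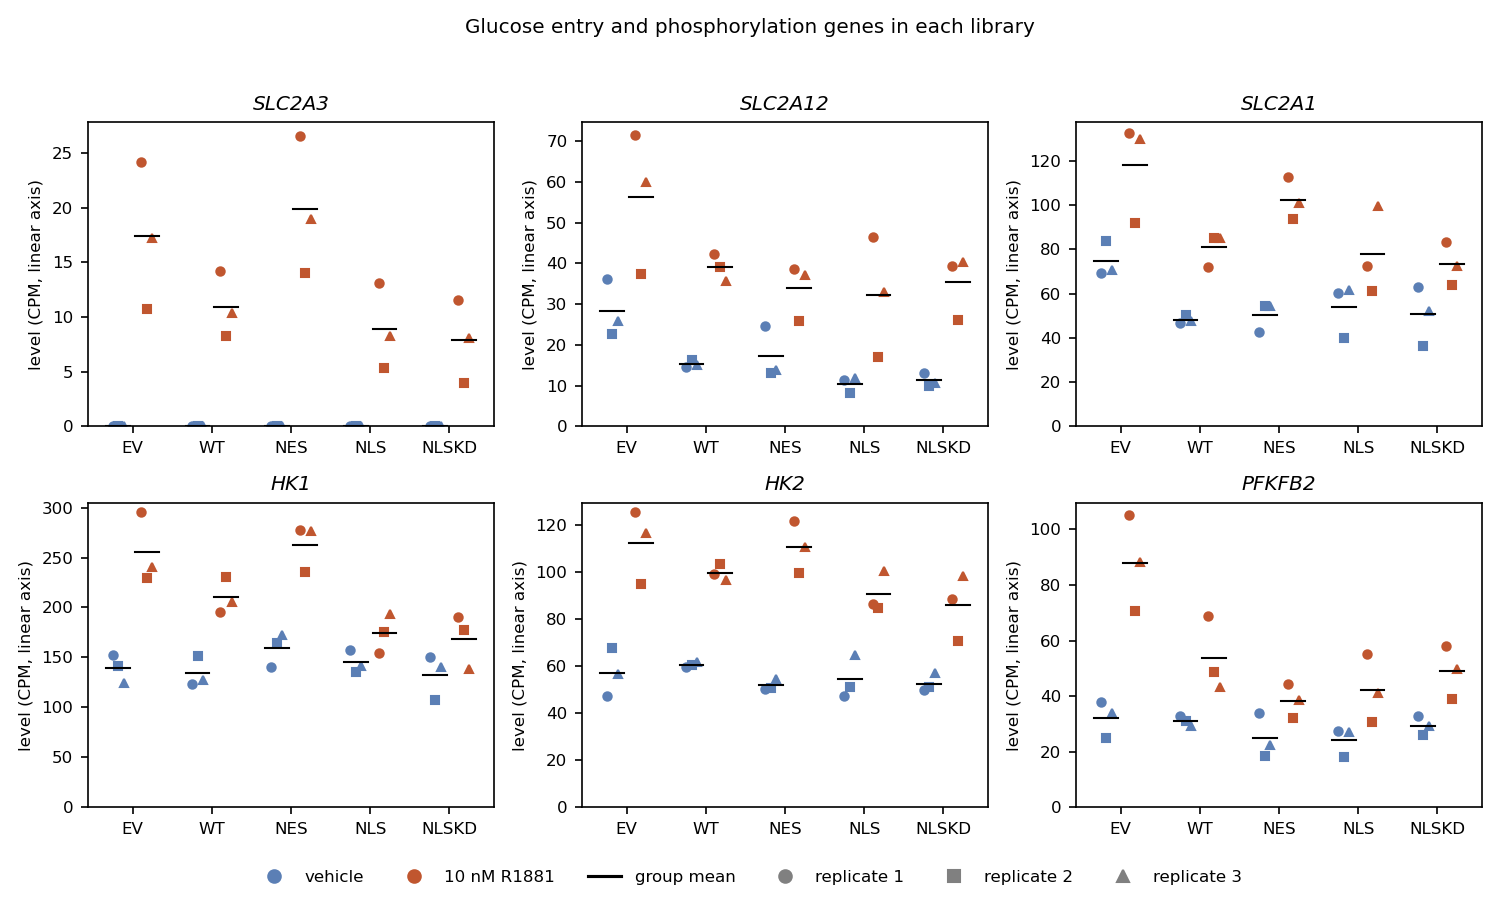
Level in CPM (vertical axes, each from 0) of SLC2A3, SLC2A12, SLC2A1, HK1, HK2 and PFKFB2 in every library, by line and treatment, with bars at the mean of 3 libraries. R1881 libraries of SLC2A3 and HK2 lie above all vehicle libraries, and PFKFB2 is highest in the EV R1881 group.

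HK2 (ENSG00000159399, chr2:74833981-74893359, plus strand) encodes the inducible hexokinase that binds mitochondria and is often raised in tumours. Under vehicle it stood at 47.3, 67.5 and 56.6 CPM for EV, 59.5, 60.4 and 61.7 for WT, 50.4, 50.8 and 54.7 for NES, 47.3, 51.2 and 64.6 for NLS, and 49.6, 51.2 and 56.9 for NLSKD. Under R1881 it stood at 125, 95.0 and 117 CPM for EV, 99.1, 103 and 96.7 for WT, 122, 99.7 and 110.5 for NES, 86.4, 84.7 and 100.2 for NLS, and 88.6, 70.7 and 98.0 for NLSKD. The lowest of all 15 R1881 libraries (70.7 CPM) was above the highest of all 15 vehicle libraries (67.5 CPM), which among the 31 members was so for HK2 and SLC2A3 only. The log2 rises were 0.98 ± 0.15 for EV (adjusted p 6.91e-05), 0.72 ± 0.15 for WT (0.00286), 1.09 ± 0.16 for NES (1.64e-05), 0.71 ± 0.15 for NLSKD (0.00488) and 0.73 ± 0.15 for NLS (0.00329). The NLSKD call was lost without NLSKD vehicle 1 or NLSKD R1881 3 (adjusted p 0.0523 to 0.0666). Over 13 alternatives, single left-out libraries included, the call was lost in 3 for NLS (adjusted p up to 0.260) and 5 for NLSKD (up to 0.120). In EV, WT and NES it was lost in 0.

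HK1 (ENSG00000156515, chr10:69269984-69401884, plus strand) encodes the constitutive hexokinase of most tissues. Vehicle libraries held 153, 141 and 125 CPM for EV, 123, 152 and 128 for WT, 140.0, 165 and 172 for NES, 157, 136 and 142 for NLS, and 150.3, 108 and 140.3 for NLSKD. R1881 libraries held 295, 229 and 241 CPM for EV, 195, 231 and 205 for WT, 277, 236 and 276 for NES, 155, 176 and 194 for NLS, and 191, 178 and 138 for NLSKD. The treatments did not overlap in EV, WT and NES and did overlap in NLS and NLSKD. The log2 rises were 0.87 ± 0.16 for EV (adjusted p 0.000358), 0.65 ± 0.16 for WT (0.00891) and 0.73 ± 0.16 for NES (0.00268), and the uncalled estimates were 0.27 for NLS and 0.35 for NLSKD. The WT call was lost without WT vehicle 1, WT vehicle 3 or WT R1881 2 (0.0569 to 0.0737).

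PFKFB2 (ENSG00000123836, chr1:207034366-207081024, plus strand) makes and degrades the sugar that activates phosphofructokinase. Its vehicle levels were 38.0, 24.9 and 33.9 CPM for EV, 32.9, 31.1 and 29.2 for WT, 33.9, 18.3 and 22.5 for NES, 27.6, 18.0 and 27.1 for NLS, and 32.9, 26.2 and 29.2 for NLSKD. Its R1881 levels were 105, 70.5 and 88.2 CPM for EV, 68.9, 48.7 and 43.3 for WT, 44.4, 32.2 and 38.5 for NES, 55.2, 30.9 and 41.0 for NLS, and 58.0, 39.0 and 49.8 for NLSKD. All 3 EV libraries under R1881 were above all 12 rescue libraries under R1881, the highest of which stood at 68.9 CPM, and within a line the treatments overlapped in NES alone. The log2 rise for EV was 1.45 ± 0.25 (adjusted p 0.000209), and the uncalled estimates were 0.79 for WT (0.0555), 0.62 for NES (0.138), 0.73 for NLSKD (0.117) and 0.81 for NLS (0.065). Where the replicate numbers paired the samples, a fit with them as a block also called PFKFB2 in WT (0.76 ± 0.14, adjusted p 0.000471), NES (0.65 ± 0.14, 0.0023) and NLSKD (0.72 ± 0.14, 0.00129). Among the 3 PFKFB genes its share of FPKM was 26.9 to 36.1% in the vehicle groups and 34.6 to 45.4% in the R1881 groups.

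PFKM (ENSG00000152556, chr12:48105139-48146404, plus strand), the muscle form of phosphofructokinase, was the only member called lower under R1881. In EV it stood at 181, 176 and 140.3 CPM under vehicle and 127, 98.5 and 118 CPM under R1881, with no overlap, a log2 change of -0.53 ± 0.15 (adjusted p 0.0238). In WT it stood at 158, 168 and 148 CPM under vehicle and 123, 148 and 131 under R1881, in NES at 150.0, 175 and 162 and then 128, 132 and 131, in NLS at 179, 133 and 153 and then 105, 118 and 142, and in NLSKD at 173, 126 and 146 and then 129, 119 and 113. The 4 rescue lines had estimates of -0.24, -0.32, -0.35 and -0.30, none called. The EV call was lost without EV vehicle 1, EV vehicle 2, EV R1881 2 or EV R1881 3 (0.0624 to 0.147). Its share of the 3 phosphofructokinase genes' FPKM was 32.8 to 42.0% in the vehicle groups and 22.8 to 30.4% in the R1881 groups. Without single libraries the number of called members in EV fell from 8 to 5 (without EV vehicle 1, EV vehicle 3, EV R1881 1 or EV R1881 3), and without the libraries over 9% mitochondrial counts it was also 5, namely SLC2A3, HK1, HK2, PFKM and PFKFB2. In WT it fell from 5 to 3 without WT vehicle 1, WT vehicle 3 or WT R1881 2.

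The enzymes below phosphofructokinase passed the test in no androgen response. GAPDH had estimates from -0.09 to 0.03 over the 5 lines, TPI1 from 0.04 to 0.20, PKM from -0.07 to 0.18, PGAM1 from 0.08 to 0.21, ENO1 from 0.18 to 0.37 and LDHA from 0.26 to 0.47. ALDOA had 0.23 to 0.72, and with the replicate block it was called in NES (0.76 ± 0.23, adjusted p 0.0283). The estimates of PDK1, which is a HIF target, were 0.21 to 0.39, and those of the export carrier SLC16A1 ran from -0.50 in EV to 0.01 in NES. Of the remaining members of the lower pathway and its branches, PGK1 had 0.15 to 0.33, ALDOC 0.07 to 0.32, LDHB -0.16 to 0.29, ENO2 -0.43 to -0.05, PDK2 -0.49 to -0.06 and PDK3 -0.15 to 0.28. The standard errors of these estimates ran from 0.14 (PGAM1) to 0.35 (SLC16A1). Counts were also simulated from each gene's level and fitted spread over all 30 libraries. Changes were put into the EV R1881 libraries, in well-counted genes only. Of 17809 genes, 67, 67 and 66 were changed by 0.5, 1 and 2 on the log2 scale. In the real EV response 9.11% of genes were called. The adjustment is stricter where fewer genes change, so recovery may be understated for the real response. The test of the EV androgen response recovered 5.97% of genes changed by 0.5 on the log2 scale, 41.8% of those changed by 1 and 98.5% of those changed by 2. The wider spread of some members within EV was not simulated separately.

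Whether the responses differed between lines was tested directly, as the response in a rescue line minus that in EV. By edgeR no member was called in WT (0.0437% of all genes were), NES (0%), NLS (0.0164%) or NLSKD (0.0164%), and DESeq2 called 0 as well. At an unadjusted p under 0.05 there were 0 members for WT, 1 for NES, and 1 and 2 for NLS and NLSKD (the share of all genes is not given here). They were PFKFB2 in NES (-0.82 ± 0.35, unadjusted p 0.0258), HK1 in NLS (-0.60 ± 0.22, 0.0113), and HK1 (-0.52 ± 0.22, 0.0258) and SLC2A10 in NLSKD. For PFKFB2 the other differences were -0.66 ± 0.35 in WT, -0.64 ± 0.35 in NLS and -0.71 ± 0.35 in NLSKD. The calls of HK1, SLC2A1 and PFKFB2 in some lines and not in others are therefore not shown to differ between lines.

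The second set of comparisons asks how the members in each rescue line stood against EV under the same treatment. In the main fit, which used no replicate block, no member was called higher in a rescue line. With the block, SLC16A1 and PDK2 were called higher in NLSKD under R1881, as given below. The lower enzymes and the lactate enzyme LDHA carried most calls in WT, and PFKFB2 was called lower in NES, NLS and NLSKD under R1881. WT was not tested against the other rescue lines, so these calls do not show that the lines differ. The PFKFB2 estimate in WT was also below EV, and LDHA was below EV in every rescue line. Over the 8 comparisons 12 members were called lower at least once: PGK1 in 4, LDHA, PFKFB2, PFKFB4 and PKM in 3 each, ALDOA, HK1, PGM1 and SLC2A12 in 2 each, and PDK3, PGAM1 and SLC2A1 in 1 each. The 4 comparisons of a treatment share the 3 EV libraries of that treatment, so they are not independent of each other.

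Under R1881 the called members were 7 of 30 for WT (8.49% of all genes were called and 4.83% were lower), 2 for NES (6.96% and 3.69%), 3 for NLS (6.23% and 3.44%) and 3 for NLSKD (5.75% and 2.95%), all lower. Under vehicle they were 6 for WT (6.71% and 4.41%), 0 for NES (4.94% and 3.07%), 3 for NLS (4.57% and 2.98%) and 3 for NLSKD (4.01% and 2.54%), again all lower. The members' median log2 difference from EV under R1881 was -0.54 for WT, -0.20 for NES, and -0.39 and -0.47 for NLS and NLSKD, where all genes had 0.03, 0.03, 0.04 and 0.02. Under vehicle it was -0.53, -0.34, -0.40 and -0.36, where all genes had -0.01, 0.005, -0.01 and -0.02. Of the 30 members, 27, 22, 25 and 26 were below EV under R1881 in the same order, against 46.7, 47.3, 45.4 and 47.7% of all genes. The libraries did not overlap for 19 members for WT (26.4% of all genes), 10 for NES (27.7%), 10 for NLS (17.7%) and 14 for NLSKD (20.8%) under R1881, and for 15 (23.4%), 5 (15.6%), 8 (18.1%) and 9 (17.7%) under vehicle. Of the 8 luminal markers, 2, 2, 3 and 3 were called lower than EV under R1881 and 4, 3, 5 and 4 under vehicle, in the same order. KLK3 was the 1 luminal marker called higher, in WT, NES and NLS under R1881 and in NES under vehicle. Of the 5 mesenchymal markers, VIM was higher in all 8 comparisons, at 12.8 to 25.3 CPM against 4.79 and 5.39 CPM in EV, FN1 (log2 differences of -0.07 to 0.65) and COL1A1 (-0.31 to 0.37) were called in none, and CDH2 and ZEB1 did not pass the filter on low counts. The part of these markers in these differences was not tested.

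**Figure D4:**
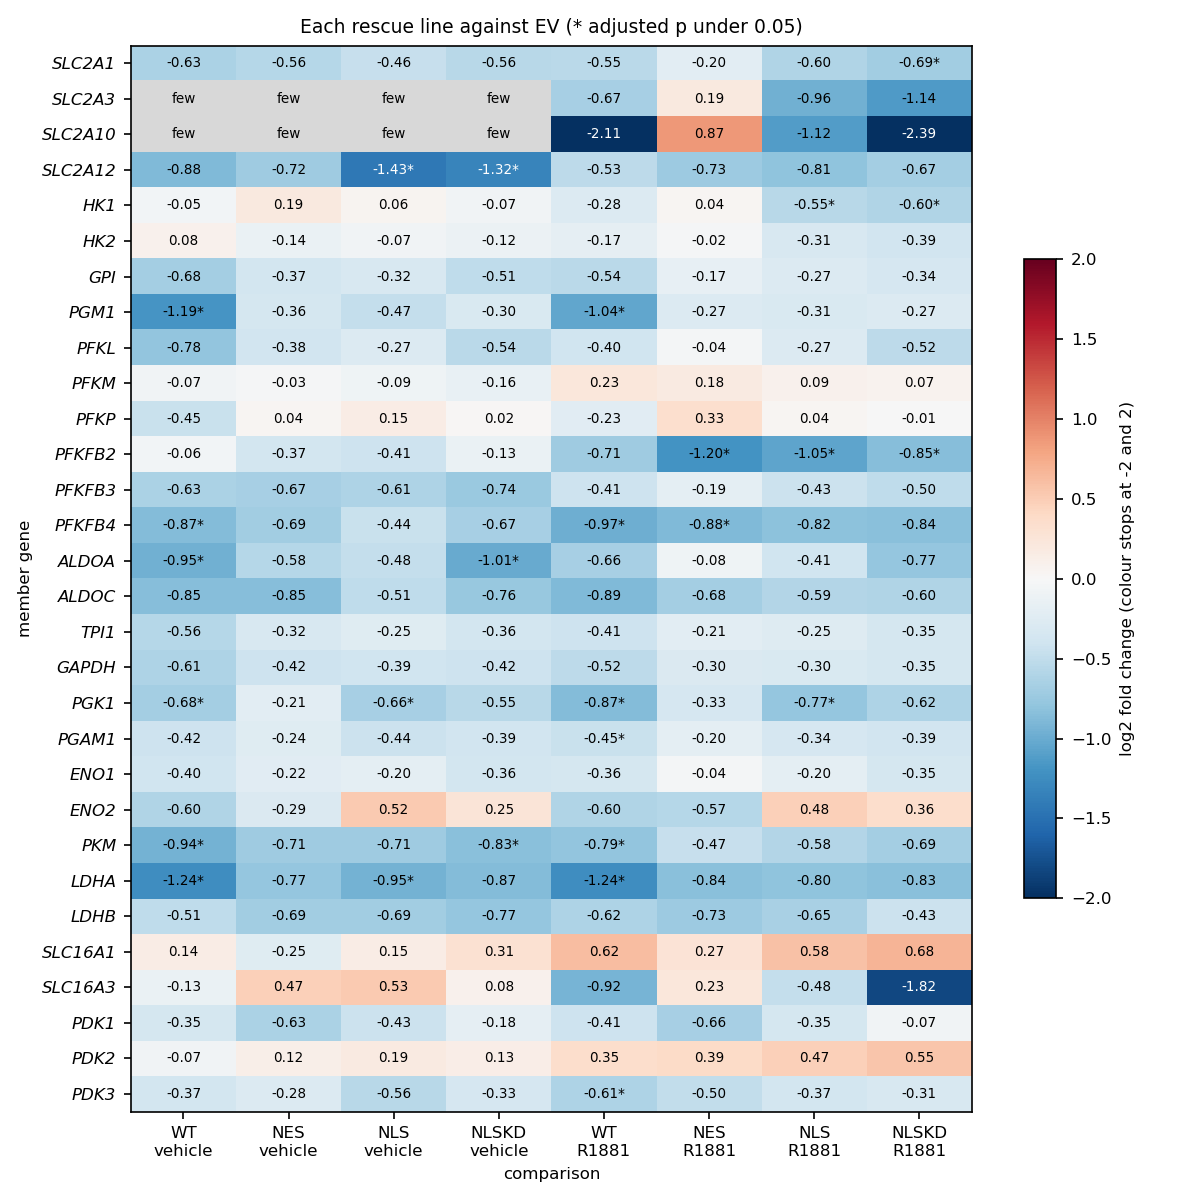
Log2 difference from EV of each tested member (vertical axis, ordered by role) in WT, NES, NLS and NLSKD under R1881 and under vehicle (horizontal axis), with the colour scale stopping at 2 in either direction. Stars mark an adjusted p under 0.05 and grey cells a group with at most 3 counts, and no starred cell is above 0.

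LDHA (ENSG00000134333, chr11:18394388-18408425, plus strand) encodes the muscle form of lactate dehydrogenase, which favours lactate. Under vehicle it stood at 1350.0, 2155 and 1203 CPM for EV, 616, 754 and 630.3 for WT, 1179, 897 and 677 for NES, 527, 947 and 963 for NLS, and 802, 985 and 787 for NLSKD. Under R1881 it stood at 2513, 1835 and 1568 CPM for EV, 1007, 772 and 729.8 for WT, 1493, 967 and 847 for NES, 1139.8, 1329.7 and 917 for NLS, and 1123, 992 and 1205 for NLSKD. Under each treatment all 3 EV libraries were above all 12 rescue libraries. The log2 difference from EV in WT was -1.24 ± 0.26 under both treatments (adjusted p 0.00254 with R1881 and 0.00296 with vehicle), and both calls held whichever library was left out. In NLS under vehicle it was -0.95 ± 0.26 (adjusted p 0.0324), a call lost without EV vehicle 2, NLS vehicle 1 or NLS vehicle 3 (0.0523 to 0.248). The uncalled estimates were -0.84 in NES, -0.80 in NLS and -0.83 in NLSKD under R1881, and -0.77 in NES and -0.87 in NLSKD under vehicle.

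PGM1 (ENSG00000079739, chr1:63593276-63660245, plus strand) interconverts the phosphates that join glycogen to glycolysis. Under vehicle it stood at 71.5, 88.0 and 57.3 CPM for EV, 34.7, 30.9 and 29.6 for WT, 64.8, 51.5 and 53.1 for NES, 48.7, 48.9 and 58.8 for NLS, and 61.5, 60.5 and 54.3 for NLSKD. Under R1881 it stood at 94.7, 71.9 and 71.4 CPM for EV, 41.6, 36.8 and 37.1 for WT, 80.9, 53.4 and 63.7 for NES, 70.3, 61.7 and 60.0 for NLS, and 71.0, 61.5 and 65.0 for NLSKD. The WT libraries were the lowest 3 of each treatment. The log2 difference from EV in WT was -1.04 ± 0.17 under R1881 (adjusted p 0.000131) and -1.19 ± 0.17 under vehicle (2.57e-05), and both calls held whichever library was left out. In the other lines the estimates lay between -0.47 and -0.27 and none was called.

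PGK1 (ENSG00000102144, chrX:77910739-78129296, plus strand) makes ATP in the lower pathway and PKM (ENSG00000067225, chr15:72199029-72231822, minus strand) encodes a pyruvate kinase. PGK1 averaged 1092 ± 342 CPM (SD, n = 3) in EV, 598 ± 26.9 in WT and 642 ± 59.3 in NLS under R1881, and 867 ± 206, 541 ± 46.6 and 547 ± 49.3 CPM under vehicle. Its log2 differences from EV were -0.87 ± 0.20 in WT (adjusted p 0.00427) and -0.77 ± 0.20 in NLS (0.0152) under R1881, and -0.68 ± 0.20 in WT (0.0316) and -0.66 ± 0.20 in NLS (0.0486) under vehicle. The spread of EV was wide, since EV R1881 1 stood at 1488 CPM beside 898 and 892 CPM. Without EV R1881 1 neither R1881 call held (0.0705 in WT and 0.198 in NLS, the latter also lost without NLS R1881 1), and each vehicle call was lost without any of its libraries other than EV vehicle 3 (0.0508 to 0.214 in WT, 0.0987 to 0.223 in NLS). PKM averaged 1462 ± 179.8 CPM in EV and 845 ± 106 in WT under R1881, and 1535 ± 568 CPM in EV, 800.4 ± 123 in WT and 864 ± 96.1 in NLSKD under vehicle. Its differences were -0.79 ± 0.22 in WT under R1881 (adjusted p 0.0221), and -0.94 ± 0.22 in WT (0.00714) and -0.83 ± 0.22 in NLSKD (0.0288) under vehicle. The R1881 call was lost without EV R1881 1, EV R1881 2, WT R1881 1 or WT R1881 3 (0.0543 to 0.0981), the WT vehicle call without EV vehicle 2 or WT vehicle 1 (0.0544 to 0.117), and the NLSKD call without any library other than EV vehicle 3 (0.0559 to 0.290).

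**Figure D5:**
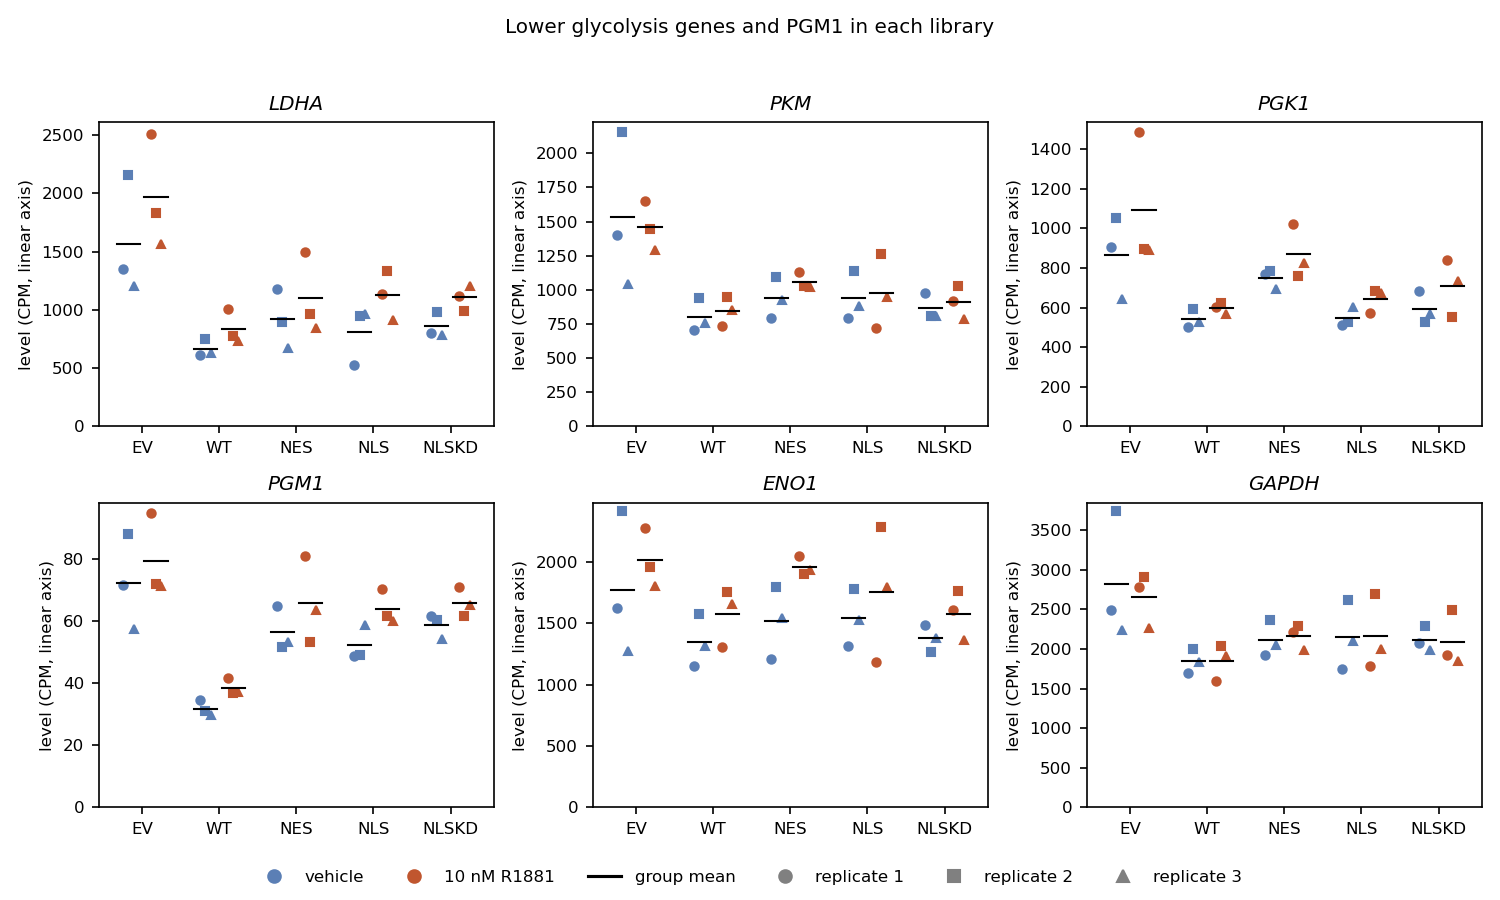
Level in CPM (vertical axes, each from 0) of LDHA, PKM, PGK1, PGM1, ENO1 and GAPDH in every library, by line and treatment, with bars at the mean of 3 libraries. EV libraries of LDHA lie above all rescue libraries of the same treatment, WT libraries of PGM1 are the lowest, and EV vehicle 2 is the highest vehicle library of PKM at 2156 CPM.

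ALDOA (ENSG00000149925, chr16:30064164-30070457, plus strand), the aldolase of muscle and most tumours, was low in these counts, with the overlap given above. Under vehicle it stood at 15.0, 21.5 and 13.0 CPM for EV, 6.05, 9.67 and 9.81 for WT, 8.32, 14.4 and 10.4 for NES, 10.2, 12.8 and 12.6 for NLS, and 10.2, 5.53 and 8.80 for NLSKD. Under R1881 it stood at 19.4, 21.2 and 17.4 CPM for EV, 12.2, 13.3 and 11.3 for WT, 20.5, 14.9 and 19.2 for NES, 11.4, 18.4 and 14.1 for NLS, and 12.1, 12.3 and 9.48 for NLSKD. Under vehicle the WT and NLSKD libraries did not overlap those of EV, with log2 differences of -0.95 ± 0.25 (adjusted p 0.0167) and -1.01 ± 0.25 (0.0173). The WT call was lost without EV vehicle 2 or WT vehicle 1 (0.131 to 0.146) and the NLSKD call without EV vehicle 2, NLSKD vehicle 2 or NLSKD vehicle 3 (0.0646 to 0.143). Further members called in WT were PFKFB4, a hypoxia-inducible PFKFB enzyme, at -0.97 ± 0.26 under R1881 (adjusted p 0.0171) and -0.87 ± 0.26 under vehicle (0.0420), the mutase PGAM1 at -0.45 ± 0.14 under R1881 (0.0382) and PDK3 at -0.61 ± 0.18 under R1881 (0.0328). PFKFB4 averaged 36.0 ± 7.02 CPM (SD, n = 3) in EV and 18.3 ± 3.15 in WT under R1881, and 25.7 ± 11.3 and 14.1 ± 0.728 CPM under vehicle. PGAM1 averaged 618 ± 102 CPM in EV and 452 ± 11.1 in WT, and PDK3 28.6 ± 4.38 and 18.8 ± 1.88 CPM, under R1881. All of these calls were lost without at least 1 library: PFKFB4 without EV R1881 3 or WT R1881 1 (0.0843 to 0.100) and, under vehicle, without any library other than EV vehicle 1 (0.0555 to 0.448), PGAM1 without any other than EV R1881 2 (0.0598 to 0.254), and PDK3 without EV R1881 1, EV R1881 2, WT R1881 1 or WT R1881 3 (0.0582 to 0.158).

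In WT under R1881 the number of called members was 3 without EV R1881 1 and 4 without WT R1881 1 or WT R1881 3. Under vehicle it was 2 without EV vehicle 2 or WT vehicle 1 and 10 without EV vehicle 3. EV vehicle 3 is among the libraries with over 9% mitochondrial counts, and without all of those the WT vehicle comparison called 14 members, all lower: the 6 above, PGAM1, GAPDH, GPI, PFKL, PFKFB3, ALDOC, SLC2A1 and SLC2A12. The shares of all genes given above belong to the fit of all 30 libraries. The share in this smaller fit is not given here, so a rise in calls over all genes cannot be told apart.

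The library values of PFKFB2 and SLC2A12 stand above. PFKFB2 was called lower than EV in NES, NLS and NLSKD under R1881 and in no line under vehicle, and SLC2A12 in NLS and NLSKD under vehicle only. The log2 differences of PFKFB2 under R1881 were -1.20 ± 0.25 in NES (adjusted p 0.00256), -1.05 ± 0.25 in NLS (0.00804) and -0.85 ± 0.25 in NLSKD (0.0393). The estimate in WT was -0.71, not called, and under vehicle the estimates lay between -0.41 and -0.06. The NES call held whichever library was left out, while the NLS call was lost without EV R1881 1 or NLS R1881 2 (0.0559 to 0.0575) and the NLSKD call without EV R1881 1, EV R1881 3, NLSKD R1881 2 or NLSKD R1881 3 (0.0984 to 0.189). SLC2A12 under vehicle differed by -1.43 ± 0.30 in NLS (adjusted p 0.00395) and -1.32 ± 0.30 in NLSKD (0.00890). The NLS call held whichever library was left out, and the NLSKD call was lost without EV vehicle 1, NLSKD vehicle 2 or NLSKD vehicle 3 (0.0620 to 0.0742). Under R1881 the SLC2A12 estimates were -0.53 for WT, -0.73 for NES, and -0.81 and -0.67 for NLS and NLSKD, none called.

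HK1 was lower than EV under R1881 in NLS (-0.55 ± 0.16, adjusted p 0.0332) and NLSKD (-0.60 ± 0.16, 0.0202), SLC2A1 in NLSKD (-0.69 ± 0.21, 0.0459) and PFKFB4 in NES (-0.88 ± 0.26, 0.0390). Under vehicle HK1 differed from EV by -0.07 to 0.19, none called. These calls were lost without EV R1881 1, EV R1881 3, NLS R1881 1 or NLS R1881 2 for HK1 in NLS (0.0635 to 0.201), EV R1881 1 or NLSKD R1881 3 for HK1 in NLSKD (0.135 to 0.142), EV R1881 1, EV R1881 3, NLSKD R1881 2 or NLSKD R1881 3 for SLC2A1 (0.126 to 0.186), and any library other than EV R1881 1 for PFKFB4 (0.0886 to 0.186). The number of called members was therefore 1 in NES without EV R1881 2, NES R1881 2 or NES R1881 3, 0 in NLS without EV R1881 1, and 0 in NLSKD without EV R1881 1 or NLSKD R1881 3 and 1 without NLSKD R1881 2. Under vehicle it was 1 in NLS without EV vehicle 2, NLS vehicle 1 or NLS vehicle 3, and in NLSKD 1 without EV vehicle 1 or EV vehicle 2, 0 without NLSKD vehicle 2 or NLSKD vehicle 3 and 5 without EV vehicle 3. Without the libraries over 9% mitochondrial counts, NES R1881 had 1 called member (PFKFB2, -1.10) and NLSKD R1881 had 7, with the share of all genes in that fit not given here.

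The replicate numbers paired the samples in NLS and NLSKD against EV under R1881 and in NLS against EV under vehicle, and there the block raised the counts. In NLS under R1881 it called 9 members, all lower, which added to the 3 above SLC2A3 (-0.98 ± 0.24, adjusted p 0.0113), LDHA (-0.80 ± 0.24, 0.0258), SLC2A1 (-0.61), SLC2A12 (-0.83), PFKFB4 (-0.86) and PKM (-0.61). In NLSKD under R1881 it called 12, with SLC2A3 (-1.17 ± 0.25, adjusted p 0.00311), LDHA (-0.81) and PGK1 (-0.61) among the 10 lower ones, and SLC16A1 (0.69 ± 0.21, 0.0316) and PDK2 (0.54 ± 0.17, 0.0467) higher. In NLS under vehicle it called 8, with PGM1 (-0.47), PGAM1 (-0.43), PKM (-0.69), LDHB (-0.70) and PDK3 (-0.56) added. None of the calls without the block was lost with it. The share of all genes called with the block is not given here, so a rise among the members cannot be told from a general rise in calls.

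NES under vehicle was the comparison with EV in which edgeR called no member. There 12 members had an unadjusted p under 0.05 by edgeR (the share of all genes is not given here), and DESeq2 called 1 (PKM, -0.71). The libraries without the 5 of high mitochondrial share gave 3 calls (PFKFB3 -0.88, ALDOC -1.14 and PKM -0.92). The count was also 1 without EV vehicle 1 or NES vehicle 1 and 3 without EV vehicle 3.

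The last comparisons asked whether the nuclear form differed from the exported form and from its kinase-dead version. By edgeR, MTOR itself was lower in NLS than in NES, at -2.05 ± 0.34 under R1881 (adjusted p 0.000884) and -2.50 ± 0.34 under vehicle (0.000181). In NLS against NES, location and MTOR level therefore cannot be told apart. Between NLS and NLSKD the MTOR estimates were -0.06 under R1881 and -0.13 under vehicle, not called. NLS against NES had no called member under R1881 (1.37% of all genes were called) or under vehicle (1.03%). At an unadjusted p under 0.05 there were 4 members under R1881, SLC2A3 (-1.15), HK1 (-0.59), PGK1 (-0.43) and ENO2, the neuronal enolase (1.05), and 3 under vehicle, SLC2A12 (-0.71), PGK1 (-0.46) and ENO2 (0.81). The share of all genes at that unadjusted threshold is not given here. DESeq2 called 2 under R1881, HK1 and ENO2 (1.06), and 0 under vehicle. With the replicate block under R1881, SLC2A3 (-1.20 ± 0.24, adjusted p 0.00662), HK1 (-0.59 ± 0.15, 0.027) and ENO2 (1.01 ± 0.25, 0.0189) were called, and without NLS R1881 1 edgeR called 1. Same-numbered libraries of these groups correlated at 0.596, 0.448 and 0.159, but not every library correlated best with its own number. The block gave every group the same shift per replicate number, so it was not a pairing of NLS with NES alone. ENO2 was listed among the neuroendocrine markers, whose other members were at 0 to 2.39 CPM as group means.

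No difference between NLS and NLSKD was detectable among the members with 3 libraries per group. By edgeR no member was called under R1881 (0.00547% of all genes were) or vehicle (0.0109%), DESeq2 called 0 in each, and at an unadjusted p under 0.05 there were 0 members under R1881 and 1 under vehicle, ALDOA (0.53). For the unadjusted threshold the share of all genes is not given here. SLC2A10 and SLC16A3 had few counts under both treatments, and SLC2A3 under vehicle only (819 counts in NLS and 537 in NLSKD under R1881, library values above). Leaving out SLC2A3, SLC2A10 and SLC16A3, the log2 estimates of NLS over NLSKD ran from -0.28 (PDK1) to 0.37 (ALDOA) under R1881, with standard errors of 0.14 to 0.35, and from -0.28 (PFKFB2) to 0.53 (ALDOA) under vehicle. These estimates do not show that both forms act alike.

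Over all 21 comparisons 14 members were called in none by the main fit: GPI, PFKL, PFKP, PFKFB3, ALDOC, TPI1, GAPDH, ENO1, ENO2, LDHB, SLC16A1, SLC16A3, PDK1 and PDK2. Some were called in other fits given above, so they are not shown to be unchanged. With the replicate block these included ENO2, LDHB, SLC16A1 and PDK2. Without the libraries of high mitochondrial share they included GPI, PFKL, PFKFB3, ALDOC and GAPDH. HK1, SLC2A1, SLC2A12 and PFKFB2 were called both as higher under R1881 and as lower than EV. The abundant enzymes GAPDH, TPI1 and ENO1 lay below EV in all 8 comparisons without passing the test, at -0.61 to -0.30, -0.56 to -0.21 and -0.40 to -0.04 on the log2 scale. PDK2, a kinase that restrains pyruvate dehydrogenase, had estimates from -0.07 to 0.55 against EV, and ENO2 from -0.60 in WT to 0.52 in NLS.

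Other genes of glucose metabolism, grouped in lists chosen with earlier results of these data known, were tested in the same fit. Of the other glycolytic enzymes, 8 of 15 were tested, and ADPGK, an ADP-dependent glucokinase, rose in all 5 lines (0.73 for EV, 0.56 for WT, 0.87 for NES, and 0.62 and 0.77 for NLS and NLSKD). It was lower than EV in WT, NLS and NLSKD under both treatments (-0.75 to -0.58). PGM2, a further phosphoglucomutase, rose in WT (1.25), NES (1.13) and NLS (1.21). Of the other carriers, 12 of 14 were tested. The insulin-responsive glucose carrier SLC2A4 rose in EV (0.93) and NES (1.22), and the monocarboxylate carrier SLC16A7 fell in EV (-1.79) and NES (-1.52) and was higher than EV in 7 of 8 comparisons (1.61 to 2.99). The sodium-coupled glucose carrier SLC5A1 was called lower in NLSKD on few counts, 17, 15 and 3 in the vehicle libraries and 0 in all R1881 libraries.

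The mitochondrial pyruvate carrier subunit MPC2 rose in all 5 lines, by 1.98 ± 0.15 for EV, 1.68 ± 0.15 for WT, 1.38 ± 0.15 for NES, and 1.43 ± 0.15 and 1.64 ± 0.15 for NLS and NLSKD. It was 1 of 10 tested genes of pyruvate dehydrogenase and its carrier, of which PDHX also rose in EV (0.64). In NLS both were lower than EV under R1881, MPC2 at -0.51 and PDHX at -0.62, and DLAT was higher than EV under vehicle in WT (0.75) and NES (0.78). Among 12 tested genes of glycogen and UDP-sugar metabolism, UAP1, which makes the sugar donor for protein glycosylation, rose in all 5 lines (1.52 to 2.02). PGM3 of the same branch rose in EV (1.10), NLS (0.65) and NLSKD (0.64), and was lower than EV under R1881 in WT (-0.66), NES (-0.60) and NLS (-0.71). UAP1 was higher than EV in NES under vehicle (0.57). The glycogen phosphorylase PYGL was lower than EV in all 8 comparisons (-2.88 to -2.41) and fell under R1881 in EV (-0.74) and NES (-0.82), while PYGB rose in WT (0.70) and NES (0.71) and the glycogen synthase GYS1 in NES (0.51). Of the 8 pentose phosphate genes, edgeR called 0 in every comparison, with 1 at an unadjusted p under 0.05 in each of the NES and NLSKD androgen responses and in NLS against NES under vehicle, and DESeq2 called 1, in the NES androgen response. For the unadjusted counts the share of all genes is not given here. Of the glucose-responsive and gluconeogenic genes, 7 of 9 were tested. PCK2, the mitochondrial enzyme of gluconeogenesis, was higher in NLS than in NES under R1881 (1.14) and vehicle (1.16), and higher than EV under R1881 in NLS (0.88) and NLSKD (0.80). The glucose sensor MLXIP fell in EV under R1881 (-0.50) and was lower than EV in NLSKD under vehicle (-0.51), and pyruvate carboxylase (PC) rose in NES (0.59).

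Of the HIF targets outside glycolysis, 11 of 12 were tested. NDRG1, a stress-responsive gene, rose in all 5 lines (2.19 to 3.78) and was lower than EV in all 8 comparisons (-2.65 to -1.06). EGLN3, the oxygen-sensing hydroxylase, was also lower than EV in all 8 (-1.55 to -0.78), and fell under R1881 in WT (-1.03), NES (-0.82) and NLSKD (-0.69). The mitophagy gene BNIP3 was lower than EV in 7 of 8 (-1.16 to -0.74) and rose in EV (0.65). VEGFA, the angiogenic factor, rose in EV (0.65), WT (0.56) and NES (0.99) and was higher in NLS than in NES under vehicle (0.70). ANKRD37 rose in EV (1.23) and NES (1.17). The median log2 difference of the list from EV under R1881 was -0.83 for WT, -0.59 for NES, and -0.35 and -0.68 for NLS and NLSKD, beside the all-gene medians given above, and HILPDA was called higher in WT under R1881 (0.61).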

How the data were processed

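RNA of 30 LNCaP libraries, 3 for each of 10 groups, was measured by sequencing. The authors deposited a table with a raw read count per gene and library, not normalized, per the file headers. The authors also deposited an FPKM value for each, in which reads are divided by gene length and by library depth, per the file headers. HISAT2 2.0.5, featureCounts 1.5.0-p3 and the build hg38 are named, per the submitters' processing notes. For the strand setting and for reads that match several places, the rule is not given in the sources used here. All 58735 gene identifiers and positions were those of GENCODE release 29, and columns were matched to samples by title.

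Counts were tested in R 4.3.3 with edgeR 4.0.16 (limma 3.58.1): TMM factors, filterByExpr, and the two-sided quasi-likelihood test, in 1 model of all 30 libraries that gave each group its own mean and used no block. The filter left 18296 genes, and Benjamini-Hochberg adjustment ran over all of them within each of 21 comparisons, with calls at an adjusted p under 0.05. Standard errors were derived from the F statistic. CPM (counts scaled to a common library size) used TMM sizes. FPKM values were used only for levels between genes and shares within families. Replicates of a group differed by far more than counting noise (the smallest chi-square divided by its degrees of freedom was 11.6). The script was tested on simulated data.

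Replicate numbers come from the sample titles. In 17 comparisons of groups it was checked whether same-numbered libraries deviated together over the genes tested. Every pair had a correlation over 0.1 in 9: the androgen responses of EV, WT, NES and NLSKD, NLS against EV, NLSKD against EV and NLS against NES under R1881, and NLS against EV and NLS against NLSKD under vehicle. There the numbers were taken to pair the samples. The block itself was fitted over all 30 libraries at once, so it also covered groups in which pairing was not shown.

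The members, the other gene lists and the comparisons were chosen with earlier results of these data known. The text names every called member, up to 12 in a comparison, and up to 4 called genes of each other list in a comparison, by adjusted p. Library values are printed for members called in an androgen response, or called against EV with a log2 difference of at least 1 in size. The alternatives were DESeq2 1.42.0, RLE factors, library totals alone, no filter, a fit of the compared groups only, the replicate block, leaving out the 5 libraries with over 9% mitochondrial counts, and leaving out each library in turn. Promoter sequences came from RefSeq tables (GRCh38.p14), and tables were handled in Python 3.11.15 with pandas 2.3.3.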

Additional observations from a re-analysis of the deposited data

How the results depend on the processing

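The number of called members is the result given here, and no called member changed direction under any alternative. Counts under the alternatives are given without the share of all genes called in the same fit. Of 52 calls over the 21 comparisons, 19 held under every alternative, single left-out libraries included. RLE factors moved no count by over 1.5 times, and library totals alone moved 1 of 21, NLSKD against EV under R1881, from 3 to 0. DESeq2 gave 4 for NES, 6 for NLS and 9 for NLSKD against EV under R1881, 2 for NLS against NES under R1881, and 10 for WT, 1 for NES and 5 for NLS against EV under vehicle. Without a filter on low counts there were 4 for NES and 5 for NLS against EV under R1881, 2 for NLS against NES under R1881, and 2 for NES and 5 for NLSKD against EV under vehicle. A fit of the compared groups only, with fewer libraries behind each spread, gave 5 for the androgen response of EV and 1 for that of NLS, 0 for NLS and 0 for NLSKD against EV under R1881, and 3 for WT, 1 for NLS and 1 for NLSKD against EV under vehicle. Without the libraries over 9% mitochondrial counts there were 5 for the androgen response of EV, 1 for NES and 7 for NLSKD against EV under R1881, and 14 for WT and 3 for NES against EV under vehicle. The cause of these shifts was not tested.

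With the replicate block the counts were 12 for WT, 7 for NES, and 9 and 12 for NLS and NLSKD against EV under R1881, 3 for NLS against NES under R1881, and 13 for WT, 6 for NES, and 8 and 6 for NLS and NLSKD against EV under vehicle. The block called 106 members over the 21 comparisons, lost none of the 52 calls, and moved no other count by over 1.5 times. The numbers were not shown to pair the samples for WT and NES against EV under R1881, nor for WT, NES and NLSKD against EV under vehicle, so those blocked counts rest on a shared number only. In 8 of 17 comparisons every library correlated best with its own number.

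Leaving out single libraries gave 5 to 7 called members for the androgen response of EV, 3 to 5 for WT, 4 to 6 for NES, 3 to 4 for NLS and 2 to 3 for NLSKD. Against EV under R1881 the counts were 3 to 6 for WT, 1 to 2 for NES, 0 to 4 for NLS and 0 to 4 for NLSKD. Against EV under vehicle they were 2 to 10 for WT, 0 to 3 for NES, 1 to 4 for NLS and 0 to 5 for NLSKD. NLS against NES under R1881 gave 0 to 1, and the other comparisons gave 0 throughout. Library totals alone moved the median of all genes by -0.12 in the NES and -0.11 in the NLS androgen response.

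With 3 libraries per group, changes under about 1 on the log2 scale were often missed in the simulated counts. SLC2A10, SLC16A3 and PDK4 were too low for a firm statement. The other gene lists were not refitted without single libraries.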
